A study of Mus musculus with 11 samples.

Results

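The cells compared were mouse muscle stem cells (satellite cells) that had been taken out of the muscle and had spent 2 h at 37°C (T5) and cells whose RNA was fixed while they still lay in the muscle (T0). Libraries belong to the comparison by the group at the start of their column name in the count table, which gives 4 T5 and 3 T0 libraries, 7 of the 11 libraries of the series. All mice were Tg:Pax7-nGFP on the C57BL/6 strain, in which a nuclear green fluorescent protein driven by Pax7 sequences marks the cells for sorting, and all cells came from pectoral, forelimb and hindlimb muscle. For T0 the whole muscle stood in 0.5% paraformaldehyde for 1 h at 4°C. T5 cells were sorted first and then fixed in the same 0.5% paraformaldehyde for 30 min on ice. The sample protocol places the 2 h at 37°C in DMEM before the cells were isolated, whereas the series description places it after, so it remains unclear whether whole muscle or free cells were kept warm. Neither the age of the mice nor the number of animals behind the libraries is given in the sources used here. The p-values therefore measure only the spread between these libraries, or in T5 between 2 sums of libraries, which may be technical. Isolation, incubation and the place and length of fixation differ together between T5 and T0 and cannot be told apart. Another group, T3 (4 libraries), held cells isolated and fixed like those of T5 without the 2 h, and is given beside the results to show which changes were also different from T3.

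Satellite cells lie under the basal lamina of the muscle fibre and are quiescent in resting muscle, where Pax7, Notch signalling and genes such as Spry1 and Calcr are known to keep them. On injury or dissociation they leave this state: early transcription factors of the Fos, Jun and Egr families are made within minutes, and the myogenic regulator MyoD follows. Warm incubation and loss of the niche are also known to engage the general stress programmes of cells, which are the heat shock response, the unfolded protein response of the endoplasmic reticulum, the ATF4 response to stalled translation and the NRF2 response to oxidants.

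Promoters of RefSeq (GRCm38.p6), from 250 bases before to 50 after the start, were searched on both strands for letters known for some transcription factors. The strings were TGACTCA (AP-1, the Fos and Jun dimer), TGACGTCA (CRE, also read by ATF dimers) and GGGAATTTC and GGGACTTTC (NF-kB). Also searched were GAANNTTC (heat shock), CACGTG (E-box) and CCATATTAG and CCATATATG (SRF). Strings particular to the unfolded protein response, ATF4 and NRF2 were not among them. No string contains another. The 4 named genes with the smallest p that held one are shown, each higher in T5, read 5′ to 3′ along the gene with the match in capitals. Gdf15, a stress-induced cytokine, is on the minus strand at chr8:70632046-70632345 and has the E-box letters 83 bases before its start. Cxcl1, a neutrophil-attracting chemokine, lies on the plus strand at chr5:90890995-90891294 with the NF-kB letters 71 bases before the start. Emp1, a membrane protein of epithelial type, is on the plus strand at chr6:135362681-135362980 with the AP-1 letters on the reverse strand 145 bases before the start. Plaur, the receptor of urokinase, is on the plus strand at chr7:24462233-24462532 with the AP-1 letters 69 bases before the start. Each start is that of 1 RefSeq entry that held a string. The GENCODE annotation places Gdf15 at chr8:70629393-70632456 and Emp1 at chr6:135362545-135383173, so their windows lie inside these genes.
Gdf15: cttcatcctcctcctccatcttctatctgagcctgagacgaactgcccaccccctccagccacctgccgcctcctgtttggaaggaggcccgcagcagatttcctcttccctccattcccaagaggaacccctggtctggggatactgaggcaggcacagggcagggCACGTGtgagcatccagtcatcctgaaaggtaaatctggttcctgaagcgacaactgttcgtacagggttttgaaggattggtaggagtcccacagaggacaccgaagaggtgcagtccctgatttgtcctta
Cxcl1: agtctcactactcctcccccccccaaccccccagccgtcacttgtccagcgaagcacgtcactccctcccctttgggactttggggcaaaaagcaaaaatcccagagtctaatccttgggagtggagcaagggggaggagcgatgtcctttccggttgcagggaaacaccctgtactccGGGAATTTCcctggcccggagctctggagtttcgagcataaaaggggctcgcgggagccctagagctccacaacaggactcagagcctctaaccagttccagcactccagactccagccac
Emp1: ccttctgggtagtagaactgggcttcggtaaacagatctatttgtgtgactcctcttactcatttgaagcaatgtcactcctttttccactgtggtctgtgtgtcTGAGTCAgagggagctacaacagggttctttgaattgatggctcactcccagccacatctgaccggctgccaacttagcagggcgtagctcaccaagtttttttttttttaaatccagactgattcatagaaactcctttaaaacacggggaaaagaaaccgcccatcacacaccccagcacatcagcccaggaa
Plaur: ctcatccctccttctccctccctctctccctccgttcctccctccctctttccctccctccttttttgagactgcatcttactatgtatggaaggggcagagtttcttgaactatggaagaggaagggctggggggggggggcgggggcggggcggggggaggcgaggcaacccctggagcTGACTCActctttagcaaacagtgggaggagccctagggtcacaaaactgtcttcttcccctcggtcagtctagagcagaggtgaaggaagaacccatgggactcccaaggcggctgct

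Among genes tested, 17613 of 31999 had a promoter entry, with 21807 promoters between them. The AP-1 letters stood in 5.86% of 3225 promoters of genes called higher in T5 (edgeR, adjusted p under 0.05), in 3.50% of 5579 of genes called lower and in 4.65% of all. Among genes changed at least 4-fold the shares were 7.04% of 540 (higher) and 2.47% of 1014 (lower). The NF-kB letters stood in 1.67% of the promoters of genes at least 4-fold higher, in 0.296% of those at least 4-fold lower and in 0.592% of all, the first 2 shares being 9 of 540 and 3 of 1014 promoters. Over all called genes they stood in 0.651% (higher) and 0.538% (lower). For the heat shock letters the shares were 6.76% (higher), 6.00% (lower) and 6.80% (all). At 4-fold or more they were 5.56% (higher) and 6.02% (lower). For the CRE letters they were 2.70%, 2.76% and 2.33%, and 2.59% and 3.06% at 4-fold or more. The SRF letters were rare, in 0.155%, 0.179% and 0.202%. At 4-fold or more they stood in 0.556% (3 of 540) and 0.296% (3 of 1014). The E-box letters stood in 324 of the 3225 promoters of higher genes and 520 of the 5579 of lower genes (9.32%), in 10.7% and 8.09% of those changed at least 4-fold and in 8.13% of all. These shares are descriptions without a test.

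Levels are counts per megacount of the library (CPM), scaled by TMM, a method meant to reduce the effect of differences in library composition. T5 libraries that share a letter in their column name were summed before testing, because the labels do not say whether they share cells, which left T5 with n = 2 (A and B) against n = 3 for T0. Levels of single T5 libraries use their own total over the genes tested, but the TMM factor of their letter sum. Libraries of the same letter thus share that factor, and differences between single T5 libraries rest on it. Total counts ran from 49078859 to 67251946 in T0 and from 61837170 to 102347035 in T5. Ribosomal RNA loci took 4.14, 12.5 and 18.3% of the counts in the 3 T0 libraries and 12 to 20.3% in T5. T0 replicate 3 stood apart: its median absolute log2 difference was 0.687 from replicate 1 and 0.529 from replicate 2, which differed from each other by 0.167. In many genes that fell it was the T0 library nearest to T5, as for Chodl and Spry1. In many genes that rose it was the farthest from T5, as for Myc, Egr1 and Hk2, though not in all (Emp1 and Ier5). The T5 libraries differed by 0.102 to 0.205 from one another, and the closest pair, T5A6 and T5B5, carries different letters. On the first principal component (66.9% of the variance) T0 lay at −118.3, −101.5 and −78.1, T3 between 29.4 and 35.0 and T5 between 39.1 and 44.1.

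In T5, 4229 genes were higher and 7184 were lower than in T0 out of 31999 tested (edgeR quasi-likelihood test, Benjamini-Hochberg adjusted p under 0.05), which is 13.2% and 22.5% of the genes tested. The changes reached high sizes on both sides: 799 genes were at least 4-fold higher and 1548 at least 4-fold lower, and beyond 16-fold there were 98 and 32. Every T5 library lay above every T0 library in 3958 of the 4229 higher genes, and below in 6864 of the 7184 lower genes, while the groups did not overlap in 42.5% of all genes tested. Over all genes tested, the median change on the log2 scale was 0.18 with TMM scaling. With upper quartile scaling it was 0.51, and 7144 genes were higher and 5626 lower, so that the share of lower genes among the calls went from 62.9% to 44.1%. Without T0 replicate 3 there were 8280 higher and 9276 lower genes, and without T5 A or T5 B 2667 or 2531 higher and 4844 or 4861 lower. Against T3, 411 genes were higher in T5 (1.28%) and 284 lower (0.888%). Counts of list members below are to be read beside these shares and the 13.2% and 22.5% against T0.

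**Figure D1:**
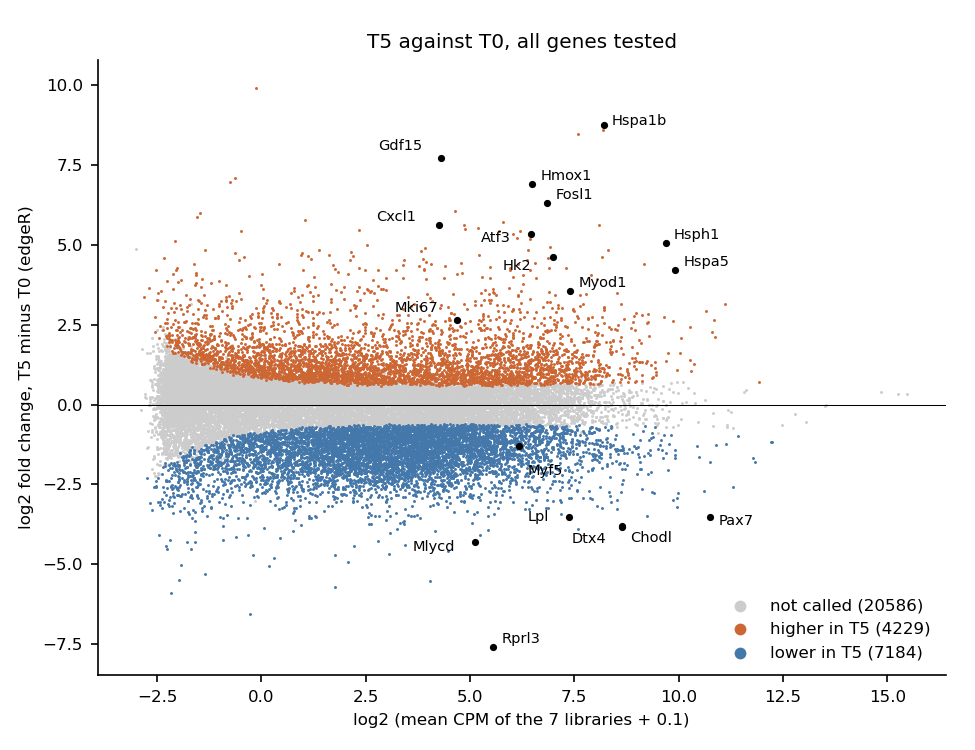
The log2 fold change of T5 minus T0 (vertical axis, edgeR) is plotted against the log2 of the mean CPM of the 7 libraries plus 0.1 (horizontal axis), 1 point for each of the 31999 genes tested. Genes called higher (4229) are orange, genes called lower (7184) blue and the rest grey, and 18 named genes are marked in black, from Hspa1b at 8.77 to Rprl3 at −7.60.

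The transcription factor that defines the cells, Pax7 (ENSMUSG00000028736.13, chr4:139737062-139833528, minus strand, GRCm38), stood at 4440, 3140 and 3260 CPM in T0 and at 358, 280, 295 and 320 CPM in the T5 libraries. The groups were far apart and the change was −3.52 ± 0.32 on the log2 scale (SE, n = 2 and 3, edgeR adjusted p = 3.22e-08), an 11.4-fold lower level. T3 lay at 249 to 400 CPM, and the difference of T5 from T3 was 0.00 (adjusted p = 0.997). A share of the Pax7 counts that could stem from the transgene was not tested. In bulk RNA, fewer cells of a type and less RNA per cell cannot be told apart.

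Of 34 genes known for satellite cell quiescence, 20 fell, 4 rose and 10 were not called, with a median log2 change of −0.93 against 0.18 for all genes tested. Chodl, a membrane lectin that marks quiescent satellite cells, went from 1070, 968 and 502 CPM to 54.4 to 71.6 CPM (−3.80 ± 0.35, adjusted p = 4.55e-08). Spry1, an inhibitor of growth factor signalling, stood at 328, 215 and 146 CPM in T0 and at 19.4 to 32.1 CPM in T5 (−3.23 ± 0.33, adjusted p = 1.27e-07). Calcr, the calcitonin receptor, went from 335 to 508 CPM down to 77.9 to 124 CPM (−2.07 ± 0.28, adjusted p = 4.84e-06). In each of these 3 genes the groups did not overlap, and for Chodl and Spry1 replicate 3 was the lowest T0 library.

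The 4 quiescence genes that rose were Sdc4 (2.32), Fgfr1 (1.06), Itgb1 (0.74) and Cdkn1c (0.67), and Cdkn1c lies over another gene. Their share, 4 of 34, lay near the 13.2% of all genes tested that were higher. Sdc4, a heparan sulphate receptor of the satellite cell surface, stood at 180, 188 and 82.7 CPM in T0 and at 583, 866, 955 and 608 CPM in T5. Without T5 A 2 of these 4 were called, and without T5 B 1 was, with Itgb1 lost in both (0.70 and 0.80). Fgfr1, a receptor for fibroblast growth factors, was above T0 in every T5 library (1470 to 1750 against 456 to 1030 CPM) but below T3 (3570 to 4440 CPM, T5 minus T3 −1.27, adjusted p = 0.0247). Leaving out T5 B ended the call of Fgfr1 against T0, at 1.03. Against T3, 7 of the 34 were lower in T5.

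Of 23 Notch pathway genes, 10 fell and 4 rose, with a median of −0.61. Over all genes tested 22.5% were lower and 13.2% higher, so the rises were near the background share. Dtx4, a ubiquitin ligase that binds Notch, went from 1040, 833 and 668 CPM to 49.3 to 73.1 CPM (−3.83 ± 0.32, adjusted p = 1.15e-08). Heyl, a transcriptional repressor made in response to Notch, stood at 571, 535 and 290 CPM in T0 and 56.6 to 71.1 CPM in T5 (−2.92 ± 0.33, adjusted p = 4.39e-07). Notch3, a receptor, fell by 2.99 and was also lower than T3 (−1.20, adjusted p = 0.0383), but it shares its place with another gene.

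Hes1, a second repressor of the Notch response, had a different course from Heyl. It stood at 21.2, 13.5 and 19.4 CPM in T0, at 2.76 to 4.13 CPM in T3 and at 10.8, 6.67, 6.94 and 7.27 CPM in T5. All T5 libraries lay between the other groups: T5 was lower than T0 (−1.16 ± 0.27, adjusted p = 0.00157) and higher than T3 (1.21, adjusted p = 0.00634). Without T5 B the difference from T0 was −1.0 and was not called. The 4 Notch genes that rose were Dll4, a ligand (1.23), Nrarp (1.02), Lfng (0.97) and Maml1 (0.80), of which Nrarp and Maml1 lie over other genes. Without T0 replicate 2, 2 of the 4 were called, and without either T5 letter 1 was.

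**Figure D2:**
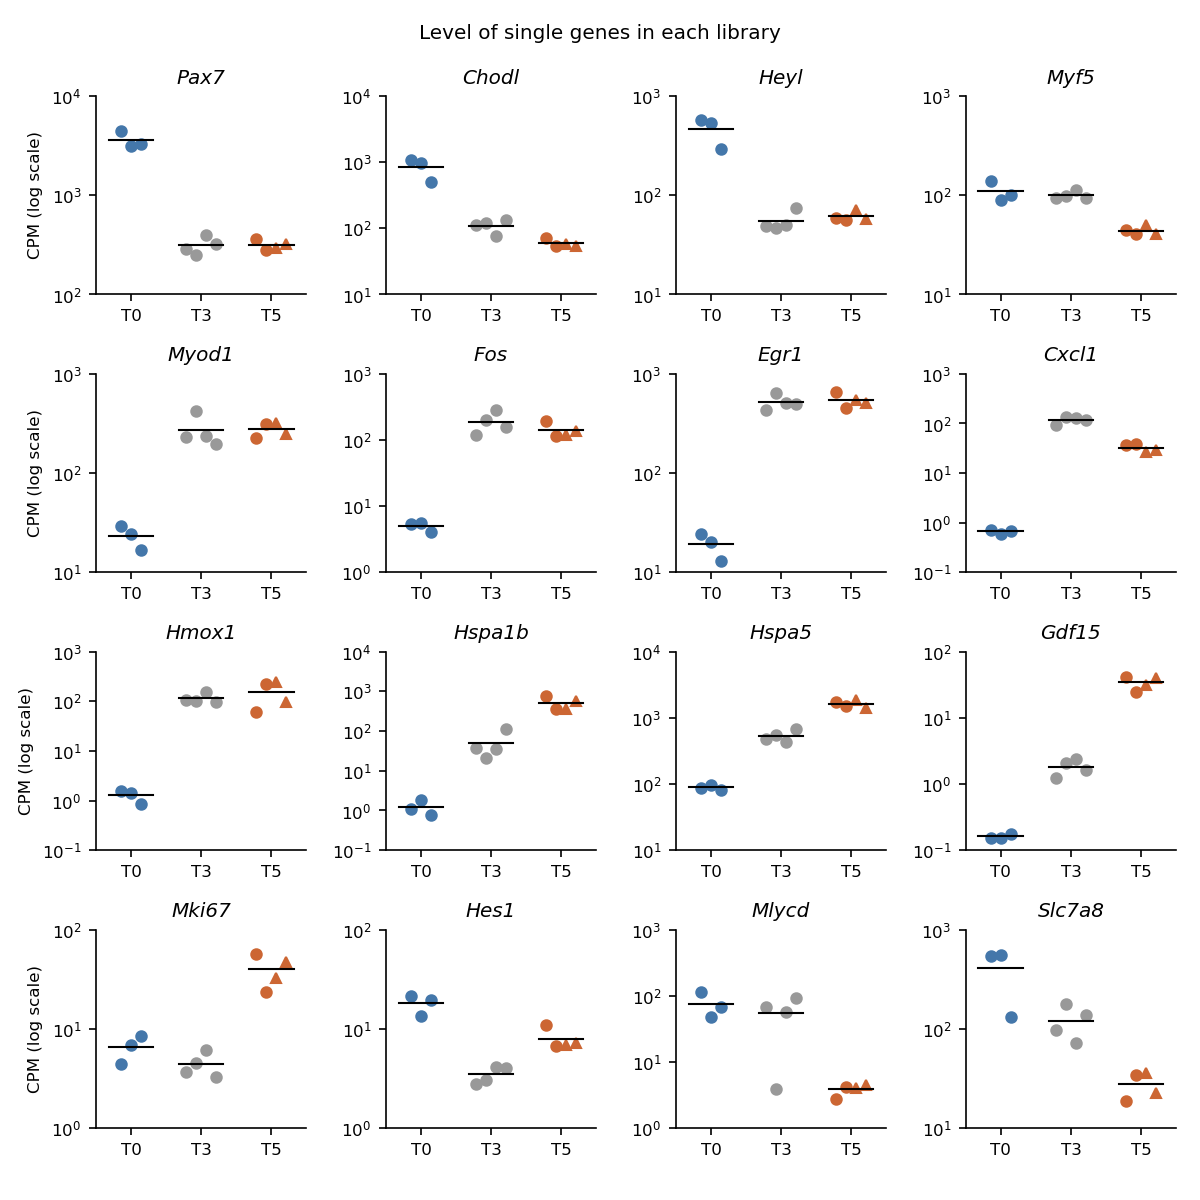
CPM on a log scale for 16 genes, with 1 point for each of the 3 T0 (blue), 4 T3 (grey) and 4 T5 (orange) libraries and a black line at the mean of the libraries plotted; T5 points run from left to right T5A5, T5A6 (circles), T5B5 and T5B6 (triangles). Pax7 goes from 3140 CPM or more in T0 to 358 CPM or less in T5, Hspa1b from under 2 CPM to 354 CPM or more, and Hes1 lies between T0 and T3.

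The genes with the lowest fold change among well-measured ones were not all genes of quiescence. Lpl, the lipoprotein lipase, stood at 513, 327 and 201 CPM in T0 and at 23.3, 36, 41.4 and 19.8 CPM in T5 (−3.53 ± 0.38, adjusted p = 3.03e-07). Slc7a8, a transporter of neutral amino acids, stood at 537, 559 and 130 CPM in T0 and 18.7 to 35.6 CPM in T5 (−3.90 ± 0.50, adjusted p = 2.19e-06). Both were also lower than T3, by 2.11 for Lpl (adjusted p = 0.000827) and 2.14 for Slc7a8 (adjusted p = 0.0075), on the log2 scale.

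Mlycd (ENSMUSG00000074064.6, chr8:119394878-119411102, plus strand), the malonyl-CoA decarboxylase of fatty acid metabolism, went from 112, 47.6 and 66.5 CPM in T0 to 2.73, 4.11, 4.00 and 4.50 CPM in T5. The change was −4.32 ± 0.74 (adjusted p = 7.06e-05). In T3 it stood at 68.4, 55.8 and 91.6 CPM in 3 libraries and at 3.90 CPM in replicate 2, which lay within the T5 range. T5 minus T3 was −3.86 (adjusted p = 0.00303), and the part of that 1 library in it was not tested.

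Rprl3 (ENSMUSG00000088025.1, chr8:3803069-3803358, minus strand), annotated as a ribozyme gene like the RNA of ribonuclease P, stood at 194, 97.3 and 34.9 CPM in T0 and 51.6 to 99.6 CPM in T3. In T5 it was at 0.198, 0.0977, 0.0427 and 2.05 CPM, so that the T5 library with most was far under every other library. The change from T0 was −7.60 ± 0.74 (adjusted p = 8.67e-08) and from T3 −7.11 (adjusted p = 2.13e-06). Reads of related ribonuclease P copies may be split in the counting, and the value is uncertain for that reason.

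Other genes among the 12 lowest were Glrb, a glycine receptor subunit (−3.50), Zbtb16, a zinc finger repressor (−3.48), Frem1, a matrix protein (−3.43), Mill2 (−3.36) and Edn3, an endothelin (−3.28). Glrb stood at 69.4 to 113 CPM in T0 and 7.53 to 8.62 CPM in T5. Zbtb16 had a wide spread in T0, at 1290, 2070 and 416 CPM, and all T5 libraries were below it at 81.5 to 143 CPM. None of these 5 was called against T3 (adjusted p from 0.0708 to 0.792).

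Immediate early genes are transcribed without new protein synthesis. Of 29 tested, 26 rose and 3 were not called, with a median of 2.77. Fos stood at 5.41, 5.61 and 4.11 CPM in T0 and at 197, 114, 120 and 137 CPM in T5 (4.85 ± 0.32, adjusted p = 2.9e-10). Egr1 stood at 24.4, 20.4 and 13.0 CPM and then at 452 to 649 CPM (4.83 ± 0.30, adjusted p = 9.9e-11). For both genes every T5 library was far above every T0 library.

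Fosl1, the Fos family member Fra-1, had the largest rise of this list (6.31 ± 0.32, adjusted p = 7.59e-12), from 1.74 to 3.03 CPM to 160 to 233 CPM. Atf3, a stress-induced partner of Jun, rose by 5.35 and Ier5 by 5.63. Myc, a regulator of growth, stood at 51.3, 63.3 and 15.5 CPM in T0, with replicate 3 lowest, and at 243 to 352 CPM in T5 (2.77 ± 0.36, adjusted p = 2.98e-06). The members that were not called were Klf2 (0.39), Klf10 (−0.71) and Srf (−0.36), which lies over another gene, and Klf10 was called lower without T0 replicate 3 (−0.94). Against T3, Fosb alone of the list was called and was lower in T5 (−1.59, adjusted p = 0.00304). Fosb was still at 136 to 182 CPM in T5, against 2.60 to 5.02 CPM in T0 and 349 to 598 CPM in T3.

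Chemokines and cytokines rose in 14 of 22 members and fell in 1, with a median of 1.51. Cxcl1 (ENSMUSG00000029380.11, chr5:90891241-90893115, plus strand), whose promoter is printed above, stood at 0.714, 0.601 and 0.681 CPM in T0, at 94 to 135 CPM in T3 and at 36.4, 38.5, 26.0 and 29.3 CPM in T5. T5 lay between the other groups, 5.61 ± 0.28 above T0 (adjusted p = 7.59e-12) and 1.88 below T3 on the log2 scale (adjusted p = 6.84e-05). Cxcl2, a chemokine for the same receptor, had the same order at lower levels, 0.0343 to 0.164 CPM in T0, 6.94 to 19.8 CPM in T3 and 1.47 to 3.24 CPM in T5.

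Csf1, the growth factor of macrophages, was at 10.4, 10.6 and 11.1 CPM in T0 and 52.9 to 63.0 CPM in T5 (2.40 ± 0.25, adjusted p = 2.47e-07), with no call against T3 (adjusted p = 0.815). The member that fell was Cxcl12, the ligand of Cxcr4 (−0.65, adjusted p = 0.0464), which was not called without T5 A (−0.61) or without T5 B (−0.66). Against T3, 4 of the 22 were lower in T5.

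Of 18 genes of NF-kB signalling, among them subunits and feedback inhibitors, 13 rose and 2 fell (median 1.04). Icam1, an adhesion molecule under NF-kB, rose from 0.736, 1.10 and 2.09 CPM to 18.5 to 31.1 CPM (4.22 ± 0.34, adjusted p = 6.74e-09). Nfkb1, the p50 subunit, rose by 1.98 ± 0.27 and Nfkbiz, an inducible regulator, by 1.80 ± 0.25. The 2 that fell act on ubiquitin chains, the ligase Birc2 (−1.75) and the deubiquitinase Cyld (−1.03), and Cyld was not called without T5 B (−0.92).

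Of 24 genes linked to the MAP kinase pathway, among them ligands and feedback genes, 17 rose and 3 fell (median 1.71). Plaur rose by 5.52 ± 0.30 from 1.19 to 1.54 CPM to 60.2 to 64.7 CPM (adjusted p = 1.65e-11), with almost the same level in all T5 libraries. Hbegf, a growth factor bound by heparin, was up by 4.40 and Dusp5, a phosphatase of ERK, by 4.45. The 3 that fell were Spry1 (above), Spred2 (−1.40) and Etv5 (−1.28), so that feedback genes of this pathway were found on both sides. The share that fell, 3 of 24, lay below the 22.5% of all genes tested that were lower.

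Several stress lists were also higher than T3. Of 22 cytosolic heat shock genes, which encode chaperones that bind unfolded proteins, 19 rose over T0 and 3 were not called, with a median of 2.60. Against T3, 11 of the 22 were higher, where 1.28% of all genes tested were higher. Hspa1b (ENSMUSG00000090877.3, chr17:34956436-34959238, minus strand), the stress-inducible Hsp70, had the largest change of the genes named, from 1.08, 1.82 and 0.757 CPM in T0 and 21.0 to 111 CPM in T3 to 767, 364, 354 and 578 CPM in T5. That was 8.77 ± 0.58 over T0 (adjusted p = 2.81e-10) and 3.38 over T3 (adjusted p = 2.41e-05). Hspa1a, its near-identical neighbour, also lies over another gene and had nearly the same values (341 to 748 CPM in T5), and reads of the pair cannot be assigned with certainty.

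Hsph1, a large co-chaperone of Hsp70, stood at 42.4, 60.9 and 27.2 CPM in T0 and at 2020, 1020, 1080 and 1520 CPM in T5 (5.05 ± 0.36, adjusted p = 8.36e-10). Hspb1, a small heat shock protein, rose by 5.44 ± 0.37 over T0 and 2.97 over T3. Dnajb1, the Hsp40 partner of Hsp70, rose by 4.93 ± 0.29 over T0 and 2.88 over T3. In Hspa1b, Hsph1, Hspb1 and Dnajb1 the T5 libraries T5A5 and T5B6 were the higher pair and T5A6 and T5B5 the lower pair, and all 4 lay above all T0 and T3 libraries.

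Of 21 folding genes of the endoplasmic reticulum, 19 rose and 2 were not called (median 1.64), and 11 were higher than T3. Hspa5, the chaperone BiP, stood at 87.1, 96.9 and 82.0 CPM in T0, 438 to 678 CPM in T3 and 1710, 1520, 1880 and 1430 CPM in T5 (4.22 ± 0.27 over T0, adjusted p = 1.82e-10, and 1.62 over T3, adjusted p = 0.000178). Pdia6, a disulphide isomerase, stood at 34 to 36.8 CPM in T0, 41.2 to 68.5 CPM in T3 and 140 to 200 CPM in T5 (2.20 ± 0.24). Neither gene overlapped between T5 and any other group. Dnajb9, a co-chaperone of BiP, rose by 3.28 over T0 and was not called against T3 (0.73, adjusted p = 0.129).

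Genes of the ATF4 response, which adjusts amino acid supply when translation is held back, rose in 19 of 23 members and fell in 1 (median 2.47), and 8 were higher than T3. Gdf15 (ENSMUSG00000038508.7, chr8:70629393-70632456, minus strand) stood at 0.151, 0.155 and 0.177 CPM in T0, 1.25 to 2.37 CPM in T3 and 41.0, 24.8, 31.1 and 40.2 CPM in T5. It rose by 7.73 ± 0.34 over T0 (adjusted p = 1.93e-12) and by 4.25 over T3 (adjusted p = 6.57e-10). Mthfd2, an enzyme of mitochondrial folate metabolism, rose by 4.31 ± 0.25 from 3.01 to 4.57 CPM to 70.2 to 79.4 CPM. Slc7a11, the cystine transporter, was the member that fell (−1.82 ± 0.31, adjusted p = 6.17e-05), from 887, 815 and 408 CPM to 182 to 218 CPM. When T0 replicate 3 was left out, 2 members were lower.

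Of 22 NRF2 targets and metallothioneins, 16 rose and 2 fell (median 1.57). Hmox1 (ENSMUSG00000005413.8, chr8:75093621-75100589, plus strand), the heme oxygenase, rose from 1.56, 1.41 and 0.870 CPM in T0 to 60.4, 225, 242 and 97.8 CPM in T5 (6.91 ± 0.33, adjusted p = 3.97e-12), with T3 at 94.9 to 157 CPM and no call of T5 against T3 (0.40, adjusted p = 0.539). Here T5A6 and T5B5 were the high pair, the reverse of the heat shock genes. Srxn1, a sulfiredoxin, rose by 4.40 and Txnrd1, the thioredoxin reductase, by 3.50. The 2 that fell were Slc7a11 and Keap1, the inhibitor of NRF2 (−1.98), which lies over another gene. Leaving out T0 replicate 3 gave 5 lower members.

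Of 20 p53 target genes, 14 rose and 4 fell (median 1.47). Cdkn1a, the cell cycle inhibitor p21, stood at 7.38, 9.87 and 3.68 CPM in T0 and 71.0 to 86.2 CPM in T5 (3.49 ± 0.33, adjusted p = 4.78e-08). Plk3, a stress kinase, rose by 3.94 and Plk2 by 2.75. The 4 that fell were Trp53inp1 (−2.31), Ccng1 (−1.71), Sesn1 (−1.46) and Rrm2b (−0.89).

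**Figure D3:**
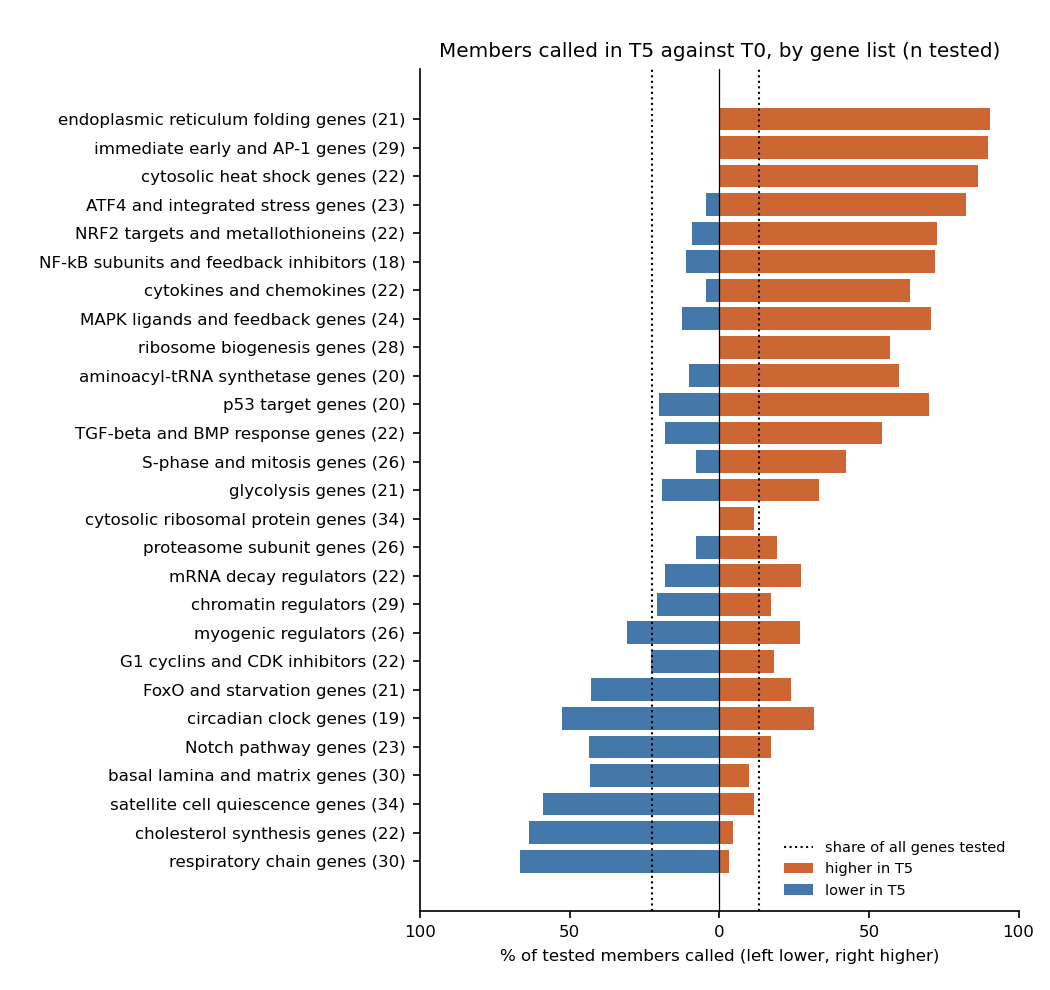
Share of tested members called higher (orange, to the right) and lower (blue, to the left) in T5 against T0 for 27 gene lists, with the number of members tested in brackets and dotted lines at the shares of all genes tested (13.2% higher, 22.5% lower). Endoplasmic reticulum folding (19 of 21 higher), immediate early (26 of 29) and heat shock genes (19 of 22) are at the top, and respiratory chain genes (20 of 30 lower) at the bottom.

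The myogenic regulators moved in both directions, 7 rising and 8 falling of 26, with a median of −0.08 (0.25 with upper quartile scaling, where the median of all genes was 0.51). Myod1, the factor that commits the cells to the muscle lineage, stood at 29.0, 24.6 and 16.6 CPM in T0 and at 224, 314, 321 and 250 CPM in T5 (3.56 ± 0.31, adjusted p = 2.13e-08), and did not differ by the test from T3 (0.01, adjusted p = 0.987). Myf5, its relative already made in quiescent cells, went the other way: 139, 89.0 and 101 CPM in T0, 93.2 to 113 CPM in T3 and 44.6, 40.7, 49.7 and 40.3 CPM in T5. T5 was lower than T0 (−1.31 ± 0.25, adjusted p = 0.000232) and lower than T3 (−1.18, adjusted p = 0.00736).

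Myog, the factor of differentiation, stood at 1.59 to 2.27 CPM in T0 and 1.21 to 2.75 CPM in T5, groups that overlapped (0.15, adjusted p = 0.785). It was higher than in T3, where it stood at 0.117 to 0.860 CPM (2.02, adjusted p = 0.00373). Id2, an inhibitor of such factors, rose by 1.79 and Megf10, a receptor of satellite cells, fell by 1.82. Without T5 A 5 members were lower, and without T5 B 4 were.

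Among 26 genes of S phase and mitosis 11 rose and 2 fell (median 0.58), and 6 were higher than T3. Mki67 (chr7:135689784-135716361, minus strand), a protein of dividing cells, stood at 4.44, 6.85 and 8.55 CPM in T0, 3.29 to 6.09 CPM in T3 and 57.0, 23.5, 32.5 and 47.6 CPM in T5. It rose by 2.64 ± 0.29 over T0 (adjusted p = 3.23e-07) and by 3.23 over T3 (adjusted p = 9.12e-08). Top2a, the topoisomerase of mitotic chromosomes, rose by 2.15 ± 0.28 over T0 and 2.17 over T3 (adjusted p = 1.56e-05). The 2 that fell make DNA precursors: Tyms went from 6.77 to 8.40 CPM to 2.00 to 2.30 CPM (−1.77), and Rrm1 was at −0.64, a call that was lost without T0 replicate 1 (−0.51), T0 replicate 2 (−0.60), T5 A (−0.74) and T5 B (−0.54). With upper quartile scaling 17 of the 26 rose.

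Of 22 genes of G1, among them cyclins, cyclin-dependent kinases and their inhibitors, 4 rose and 5 fell, near the background shares. Ccnd1, a D-type cyclin, overlapped between T5 (18.7 to 24.6 CPM) and T0 (15.2 to 20.4 CPM) and was higher than T3 (1.36, adjusted p = 0.00136), but it shares its place with another gene. The genes that rose were Cdkn1a (above), Ccne1 (1.53), Cdk6 (1.32) and Cdkn1c (0.67). Those that fell were Ccnd3 (−2.60), Rbl2 (−2.30), Cdkn1b (−0.89), Cdkn2b (−0.81) and Cdk4 (−0.76), and Ccnd3, Rbl2 and Cdk4 lie over other genes. Leaving out T0 replicate 1 or 2 left 3 of the 5 falls called, leaving out T5 A or B left 2, and upper quartile scaling gave 10 rises and 2 falls.

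**Figure D4:**
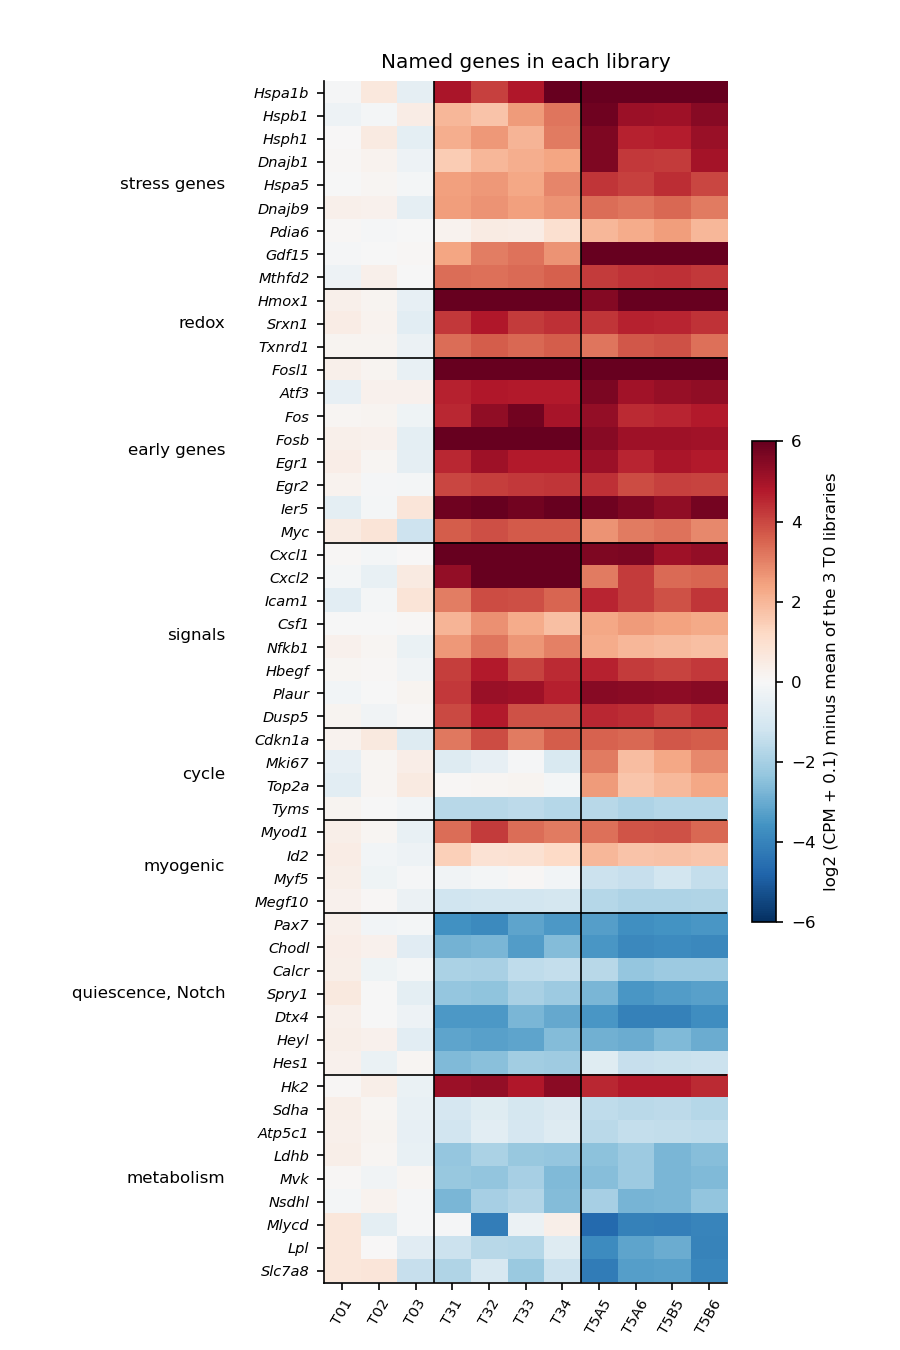
Difference of log2 (CPM + 0.1) from the mean of the 3 T0 libraries for 52 named genes (rows, grouped by role) in the 3 T0, 4 T3 and 4 T5 libraries (columns), from blue (lower) over white to red (higher), with the colours ending at 6 in both directions. Stress genes such as Gdf15, Hspb1 and Dnajb1 are darker red in T5 than in T3, Fosb, Cxcl1 and Cxcl2 are paler, and Mlycd is blue in T5 and in T3 replicate 2.

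Genes of the respiratory chain encoded in the nucleus fell in 20 of 30 members and rose in 1, with a median of −0.87. Sdha, the catalytic subunit of complex II, stood at 120, 101 and 68.2 CPM in T0 and at 28.8 to 32.7 CPM in T5 (−1.65 ± 0.27, adjusted p = 3.41e-05). Atp5c1, a subunit of the ATP synthase, stood at 89.0, 81.3 and 51.1 CPM and then at 23.6 to 26.6 CPM (−1.56 ± 0.27, adjusted p = 7.62e-05). Cycs, cytochrome c, was the member that rose (1.46 ± 0.26). Without T5 A 11 members were lower and without T5 B 10, while 16 were with upper quartile scaling. The 37 genes of the mitochondrial genome are listed at 0 in every library and could not be examined.

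Glycolysis genes were split, with 7 rising and 4 falling of 21 (median 0.10). Hk2, the inducible hexokinase, rose from 8.96, 10.8 and 6.44 CPM to 195 to 236 CPM (4.62 ± 0.28, adjusted p = 9.17e-11), and Slc2a1, a glucose transporter that lies over another gene, by 2.37. The genes that fell were Ldhb, a lactate dehydrogenase subunit (−2.58), Pfkm (−1.42), which lies over another gene, Eno3 (−0.94) and Pkm (−0.69). Without T5 A or T5 B, 2 of these were called lower.

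Genes of cholesterol synthesis fell in 14 of 22 members, with a median of −1.27. Mvk, the mevalonate kinase, stood at 20.6, 17.0 and 20.8 CPM in T0 and 2.83 to 4.18 CPM in T5 (−2.57 ± 0.27, adjusted p = 2.62e-07). Nsdhl, a sterol dehydrogenase, stood at 25.7, 31.7 and 25.9 CPM and then at 3.97 to 6.76 CPM (−2.45 ± 0.30, adjusted p = 1.71e-06). T0 replicate 3 was not apart from the other T0 libraries in these genes.

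Of 28 ribosome biogenesis genes 16 rose and 12 were not called (median 0.93). Ddx21, a nucleolar helicase, stood at 96.5, 107 and 53.6 CPM in T0 and 305 to 380 CPM in T5 (1.99 ± 0.27, adjusted p = 5.79e-06). The ribosomal proteins themselves differed: 4 of 34 rose and 30 were not called, with a median of −0.07, which was 0.33 with upper quartile scaling. The share that rose, 4 of 34, lay near the 13.2% of all genes. The 4 were Rpl24 (1.48), which lies over another gene, Rpl27 (1.26), Rpl11 (1.11) and Rps6 (1.11). Of the 34, 10 were lower without T0 replicate 3, and without T0 replicate 1, 7 were higher.

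Aminoacyl-tRNA synthetases, which load amino acids onto tRNA, rose in 12 of 20 members and fell in 2 (median 0.87). Aars rose from 23.8 to 27.9 CPM to 168 to 174 CPM (2.72 ± 0.23, adjusted p = 1.26e-08), and Cars (2.95) and Yars (2.5) rose too. Dars (−1.70) and Vars (−1.05) fell, and 4 were lower without T0 replicate 3 and 1 without T5 A, where Vars was not called (−0.99).

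Of 22 genes of the TGF-beta and BMP response, 12 rose and 4 fell (median 1.04). Ccn1, a matrix-bound signal protein, stood at 7.26 to 11.3 CPM in T0 and at 110, 64.6, 60.7 and 85.0 CPM in T5 (3.13 ± 0.26). The genes that fell were the co-receptor Tgfbr3 (−2.98), the inhibitor Smad6 (−1.71), Bmp4 (−1.54, also lower than T3, −1.02, adjusted p = 0.0428) and Tgfb3 (−0.78), which lies over another gene.

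Of 30 basal lamina and matrix genes, 13 fell and 3 rose (median −0.53). The links of the cell to the lamina were among those that fell: Sspn, sarcospan, stood at 71.8, 58.2 and 44.6 CPM in T0 and 6.98 to 7.46 CPM in T5 (−3.01 ± 0.28, adjusted p = 4.83e-08), and Dag1, dystroglycan, at 1290, 962 and 1100 CPM and then 226 to 276 CPM (−2.17 ± 0.30). The genes that rose were Col6a3 (1.10), Nid1 (0.97) and Itgb1 (0.74). The rises were 5 without T0 replicate 3 and 1 without T5 B. Col6a3 was not called without T0 replicate 1 (0.82), T0 replicate 2 (0.91) or T5 B (1.03).

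Of 19 clock genes, 10 fell and 6 rose (median −0.78). Tef, an output factor of the clock, stood at 134, 97.4 and 58.6 CPM in T0 and 14 to 18.4 CPM in T5 (−2.62 ± 0.31, adjusted p = 8.15e-07). Nfil3, a repressor that binds the same sites, rose by 2.30 and Cry1 by 1.70. The hour of the day of each collection is not given in the sources used here.

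Of 21 genes of the FoxO and starvation response, 9 fell and 5 rose (median −0.29, and 0.10 with upper quartile scaling). Foxo1, a FoxO factor, stood at 741, 748 and 320 CPM in T0 and 113 to 145 CPM in T5 (−2.27), and Klf15 fell by 2.77. Those that rose were Pdk4 (2.12), Fbxo30 (1.78), Fbxo32 (1.57), which lies over another gene, Gabarapl1 (1.53) and Ulk1 (0.74). Pdk4, a kinase that turns off pyruvate oxidation, stood at 41.1, 53.5 and 12.2 CPM in T0 and at 135 to 176 CPM in T5.

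The 12 markers of satellite cells were summed to check the labelled cell type: their total was 5850 to 8850 CPM in T0 and 1660 to 2040 CPM in T5. Of these markers 10 fell and 1, Sdc4, rose, and no marker was at 0 in all libraries of a group. The level in T5 was still above that of each list of other cells. Much of it was Sdc4, the marker that rose (583 to 955 CPM in T5), while Pax7 held 3140 to 4440 CPM of the T0 total. The sum thus rests on few of the 12 markers. The summed levels of fibroblast (1200 to 1780 CPM in T0, 725 to 855 CPM in T5), pericyte (916 to 1370 and 556 to 627 CPM) and myofibre markers (104 to 128 and 76.3 to 85.0 CPM) were lower in T5, but the median log2 change of their members was 0.44, −0.09 and 0.25. The pericyte sum was mostly Notch3 in T0 (527 to 916 CPM, and 89.0 to 95.5 CPM in T5), which lies over another gene. Of 12 pericyte markers 4 fell (Notch3, Acta2, Abcc9 and Kcnj8) and 2 rose, Rgs5 (0.86) and Des (0.66), with no rise called without T0 replicate 2, T5 A or T5 B, 4 without T0 replicate 3, and 2 falls without T5 A. Of 16 myofibre markers 2 fell, Actn3 (−1.68) and Atp2a1 (−0.97), and 3 rose, Mb (1.38), Tnnt3 (1.17) and Ckm (0.87), and Atp2a1, Mb, Tnnt3 and Ckm lie over other genes. Atp2a1 was not called without T5 A (−0.92) or T5 B (−1.01). Of the fibroblast markers 2 of 15 rose, Col1a1 (2.37) and Col1a2 (1.83), and 3 fell, Dpt, Gsn and Fbn1. These shares were near the 13.2% and 22.5% of all genes tested. Dpt lies over another gene, and 5 fibroblast markers rose without T0 replicate 3. Endothelial markers overlapped (337 to 411 and 339 to 369 CPM), with 1 of 15, Ptprb, called lower (−0.63), a call lost without T0 replicate 2 (−0.73), T5 A (−0.61) or T5 B (−0.63), and 3 were higher without T0 replicate 3.

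Macrophage markers were higher in T5 (at most 113 CPM in T0 and 261 to 289 CPM in T5), and most of that sum was Cx3cr1, at 55.3 to 86.3 CPM in T0 and 207 CPM or more in T5. Cx3cr1 lies over Csrnp1, an early gene that rose by 5.44, whose counts came to 37.2% of those of Cx3cr1, and Itgam and Csf1r also lie over other genes. Of the 14 macrophage markers 5 rose (Cx3cr1, Cd68, Cd14, Itgam and Csf1r), 8 without T0 replicate 3 and 2 without T5 B, while Ptprc, the leukocyte antigen CD45, was at 6.25 to 21.8 CPM in T0 and 7.31 to 9.63 CPM in T5. Markers of neutrophils and lymphocytes came to 8.87 to 14.7 CPM in T0 and 12.4 to 15.7 CPM in T5, ranges that overlapped, and 3 of 12 were called higher without T0 replicate 3. Of 10 Schwann cell markers 3 fell and 1, Egr2, also an early gene, rose (sums 103 to 135 CPM in T0 and 82.5 to 89.9 CPM in T5), and 2 rose without T0 replicate 3. Of 8 erythroid markers Hba-a2 rose (2.53) and Alas2, which lies over another gene, fell (−1.33), with 5 rises without T0 replicate 3, 2 without T5 B and no call of Hba-a2 without T5 A (2.07). The part of these cells in the chemokine and early gene results was not tested.

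**Figure D5:**
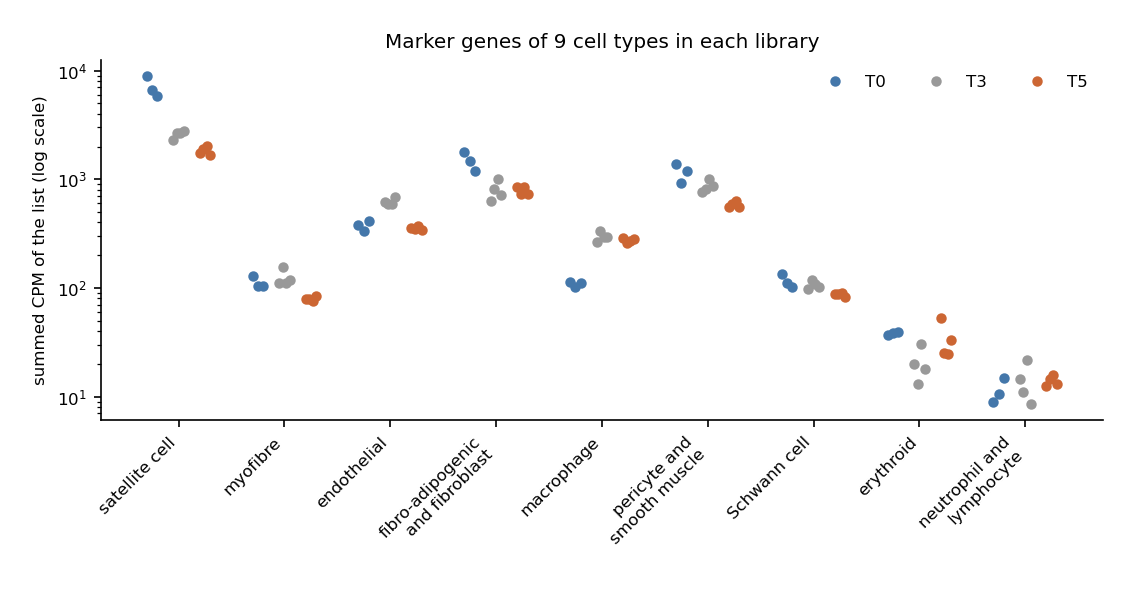
Summed CPM of the marker genes of 9 cell types (log scale) in each library, with T0 in blue, T3 in grey and T5 in orange. Satellite cell markers fall from at least 5850 CPM in T0 to at most 2040 CPM in T5, and the macrophage sum is the list that is higher in T5 than in T0 without overlap.

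Within T5, the libraries paired across the letters in many of the genes above. Hspa1b stood at 767 and 578 CPM in T5A5 and T5B6 against 364 and 354 CPM in T5A6 and T5B5. Hmox1 was at 60.4 and 97.8 CPM against 225 and 242 CPM, and Slc7a8 at 18.7 and 22.4 CPM against 34.4 and 35.6 CPM. The sums by letter therefore hold 1 library of each kind, and their spread is smaller than that of the 4 libraries. For Hmox1 the sums stood at 130 CPM (A) and 174 CPM (B). The SEs and p-values given for T5 do not contain the difference between libraries of the same letter, and may be too small for such genes. With the 4 libraries as replicates 5555 genes were higher and 8504 lower, and the log2 changes were 8.75 for Hspa1b and 6.88 for Hmox1.

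The lengths of called genes were close to each other. The median gene length was 14.4 kb for genes higher in T5, 14.8 kb for genes lower and 11.1 kb for all genes tested. Genes at least 4-fold higher were shorter, at 5.13 kb, than those at least 4-fold lower, at 8.74 kb, and had a median of 3 exons against 4. Of the called genes 70.5% (higher) and 72.2% (lower) were protein-coding, against 61.0% of all. Among protein-coding genes the median lengths were 23.9 kb (higher), 21.9 kb (lower) and 20.9 kb (all tested). Of those under 10 kb 13.0% were higher and 23.6% lower, and from 10 to 30 kb 15.5% and 28.7%. From 30 to 100 kb the shares were 17.9% and 27.3%, and from 100 kb 14.6% and 26.8%, without a steady trend.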

How the data were processed

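The RNA came from fixed, sorted cells, was isolated with the RecoverAll kit and was made into directional libraries read as 65-bp single-end reads, per the labels' protocols. The authors deposited 1 table of raw read counts per gene for 48709 genes and 11 libraries. Tools named by the submitters' processing notes are featureCounts 1.4.6-p3, STAR 2.5.0a, DESeq2 1.12.3 and R 3.3.1, with the build GRCm38. The annotation release and strand setting are not given in the sources used here. The antisense pair Xist and Tsix had almost equal counts in every library (Tsix over Xist 1.004 to 1.014). Both strands were therefore counted, and overlapping genes are uncertain. Introns may have been counted as well, and their part in the levels was not tested. A gene is said to lie over another where that gene's counts reach 20% of its own. IDs were matched to GENCODE vM21 (GRCm38): 48349 had an entry and 360 had none. Coordinates of genes are from that annotation, and promoters from RefSeq (GRCm38.p6), where 136 of 170 named genes had an entry and 41 held a motif.

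Columns were assigned to groups by name. Column numbers could not be tied to the letters of the sample titles, and T5 columns were summed by letter. The test was that of edgeR 4.0.16 run in R 4.3.3: quasi-likelihood F test, two-sided, TMM scaling, filterByExpr by group, T0, T3 and T5 in 1 fit, no covariate. Called means a Benjamini-Hochberg adjusted p under 0.05 over 31999 genes, and the SE is the log2 change over the root of F. The test was also run on simulated counts in which few genes changed, equally in both directions. Those counts lacked the many changes, the T0 replicate that stood apart and the mixed T5 sums of these data. That run cannot show how the test does under such conditions. Figures were drawn with matplotlib 3.10.9.

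Named genes are the 12 highest and 12 lowest log2 changes among called genes of mean log2 CPM of at least 4 that overlap no gene and do not overlap between groups, 3 members of each of 27 lists by p and up to 3 called against its majority, the 6 highest and 6 lowest named ones called against T3, the markers of highest level and smallest p in 9 marker lists, and 16 genes fixed by name. Where a count is 5 or lower, members outside the rule are named too, chosen after their values were seen, as are Foxo1, Col1a1, Col1a2, Klf2, Klf10 and Srf. The members, lists and tests were chosen with earlier results of these data known. Alternatives were upper quartile and RLE factors, DESeq2 1.42.0, T0 and T5 only, 4 T5 libraries as replicates, a mean of at least 1 CPM, no filter, genes without overlap, rRNA loci left out, and each replicate left out. Where 1 T5 letter is left, it is assumed to vary like the other groups. Some members of the lists are counted but not reported here by name.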

Additional observations from a re-analysis of the deposited data

Results flagged for a closer look

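In 8 of the 170 named genes 1 of the 4 T5 libraries stood far from the other 3 by Dixon's test. Chance alone gives this in about 1 in 20 groups, and 8 of 170 is near that rate. Each of these flags may therefore be chance. T5A5 was the high library for Fosb (182 CPM against 136 to 139), Bhlhe40, which lies over another gene, (53.9 CPM against 44.1 to 45.3) and Hes1 (10.8 CPM against 6.67 to 7.27). T5A6 was low for Tyms (2.00 CPM against 2.26 to 2.30) and high for Tet1 (14.2 CPM against 10.8 to 11.3). T5B5 was low for Smad6 (14.3 CPM against 16.4 to 16.8) and high for Fbxo21 (6.68 CPM against 5.68 to 5.84). T5B6 was high for Rprl3 (2.05 CPM against 0.0427 to 0.198). In each of the 8 genes all 4 T5 libraries lay on the same side of all T0 libraries. All 8 were called, and the groups did not overlap in 93.6% of genes called higher and 95.5% of those called lower. Over all genes tested the share was 42.5%. Fosb and Rprl3 were also picked by a rule that asks for such separation.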

How the results depend on the processing

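Of the 170 named genes 158 were called, and 135 of these kept call and direction in all 14 alternatives run; 23 lost the call in at least 1, and 6 others gained one. No called gene changed sign, while Ptprc, Flt1, Tek, Col3a1 and Myog, which were not called, did in at least 1 alternative (Ptprc from −0.46 to 0.35 without T0 replicate 3). The count of genes higher in T5 was 4229 and that of genes lower 7184. Upper quartile factors gave 7144 higher and 5626 lower, and genes without overlap, a smaller set of 13797, gave 1313 and 2736. Leaving out 1 replicate gave 2531 to 8280 higher and 4844 to 9276 lower genes, the most without T0 replicate 3 and the fewest without a T5 letter, where T5 has 1 sample. With T0 and T5 only there were 4400 and 5782, with RLE factors 3478 and 7373, with DESeq2 3560 and 7702, with no filter 4326 and 7086, with a mean of at least 1 CPM 4625 and 6088, and with rRNA loci left out 3978 and 7457. The cause of these shifts was not tested. No paired analysis was possible because T0 columns carry numbers and T5 columns letters, and neither can be tied to the sample titles. With 2 letter sums in T5, small changes are the ones most limited by the number of samples.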

Other observations

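Of 22 mRNA decay genes 6 rose and 4 fell (median log2 0.35 against 0.18 for all genes tested), and upper quartile scaling gave 13 rises. Btg1, an antiproliferative adaptor of the deadenylase complex, stood at 70.2, 55.2 and 33.7 CPM in T0 and 148 to 207 CPM in T5 (1.78 ± 0.27, edgeR adjusted p = 1.83e-05). Zfp36, which binds AU-rich elements of cytokine mRNA, rose by 3.19 and lies over another gene. Xrn1, the exonuclease that degrades decapped RNA, fell from 156, 146 and 97.6 CPM to 57.2 to 72.0 CPM (−1.07, adjusted p = 0.00215), a call lost without T5 B (−1.02). The other falls were Cnot3 (−1.03), which lies over another gene, Cnot8 (−0.82) and Dcp2 (−0.80). The falls were 7 without T0 replicate 3, and without either T5 letter 1 did.

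Of 29 chromatin regulators 5 rose and 6 fell, near the shares of all genes, and 14 rose with upper quartile scaling. Tet1, which oxidises methylcytosine, stood at 48.3, 40.2 and 35.5 CPM in T0 and at 10.8 to 14.2 CPM in T5 (−1.82 ± 0.25, adjusted p = 4.49e-06). Kdm6b, a demethylase of histone H3, rose from 136, 103 and 65.6 CPM to 238 to 333 CPM (1.5 ± 0.27, adjusted p = 0.000123). The other rises were Kdm1a (1.58), which lies over another gene, Kmt5a (1.01, lost without T5 B at 0.90), Kdm5b (0.95) and Hdac5 (0.92). With T0 replicate 3 left out 11 fell, without T5 A 3 did, and without T5 B 3 rose.

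Of 26 proteasome subunits 5 rose and 2 fell (median 0.21), where 13.2% of all genes tested rose and 22.5% fell. Psmd11, a subunit of the lid, stood at 58.4, 56.8 and 35.5 CPM in T0 and 167 to 204 CPM in T5 (1.88 ± 0.25, adjusted p = 4.01e-06). The other rises were Psmd1 (0.85), Psmd2 (0.79), Psmc6 (0.72) and Psmb7 (0.70), and the falls were Psma4 (−0.81) and Psmc3 (−0.74), and Psmb7 and Psmc3 lie over other genes. Only 1 subunit rose without T5 A and 1 without T5 B, 14 rose with upper quartile scaling, and the 2 falls were lost without T0 replicate 1 or 2 and without T5 A or B.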
